A study of Mus musculus with 4 samples.

Results

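Chemokines and their receptors were examined in mouse lens epithelium with and without UVB irradiation. The members were the genes whose symbol is Ccl, Cxcl, Ccr or Cxcr followed by a number, and a gene with several probe sets of its own was read from the brightest one. This gave 47 genes of 19938 with a probe set of their own, namely 19 CC ligands, 13 CXC ligands, 9 CC receptors and 6 CXC receptors. The microarrays compared lens epithelia of UVB-irradiated right eyes with those of left eyes covered with aluminium foil during the exposure, in the same male C57BL/6 mice of 8 weeks of age, 24 h after a dose of 30 mJ/cm2. There were 2 independent experiments with 1 array per condition in each, so each group had 2 arrays, and the methods give 3 mice for the animal experiments without saying whether their RNA was pooled on an array. The probe sets were read by their mouse gene symbols, although a human array is named in the methods. No genetic change of the mice is named, and both eyes shared the anaesthesia and the animal, so a covered eye is not an eye of an untreated mouse.

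Chemokines are small secreted proteins that attract leukocytes and are named by the spacing of their first cysteines, as CC or CXC ligands. They act through G protein-coupled receptors of the matching class, often several ligands on a receptor, and bind to glycosaminoglycans on cell surfaces and matrix. Ccl2 and Ccl7 are neighbouring CC ligands that attract monocytes through Ccr2, and epithelial and stromal cells are known to make them after injury or inflammatory stimulation. The lens has no blood vessels of its own, and resident leukocytes are scarce in it.

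The signals are on the log2 scale, as the authors normalized them, with a median over 28944 probe sets between 7.19 and 7.22 on the 4 arrays. In 100% of the probe sets the sum of the control and the UVB signal was equal in both experiments within 0.02, so the 4 arrays hold a control-to-UVB difference from each experiment and no further difference between experiments. A gene with a difference of the same sign in both experiments therefore has groups that do not overlap, and one with opposite signs has groups that overlap. The differences below are UVB minus control on the log2 scale, and their standard error (SE) and p came from a limma fit over all probe sets with the experiment as a block. Signals of different genes were not compared as amounts of RNA, since the signal of a probe set also depends on its probes.

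All 11 lens epithelium markers measured, among them Cryaa, Foxe3 and Pax6, lay above the 75th percentile of every array. Their median difference was −0.005 (−0.02 in experiment 1 and 0.00 in experiment 2). Markers of the retinal pigment epithelium (9 measured) and of photoreceptors (12 measured) had median differences of 0.875 and 0.91. The summed linear signal of the pigment epithelium markers went from 2540 to 5960 in experiment 1 and from 2630 to 5720 in experiment 2. That of the photoreceptor markers went from 7740 to 11800 and from 6400 to 14300. Such sums weigh the brightest probe sets most. Of the 9 pigment epithelium markers, 8 were higher in both experiments (88.9%, against 24% of all probe sets). Mitf had opposite signs, 0.06 and −0.18, with a mean of −0.06. At an unadjusted p of 0.05, Gja1 (−0.155) and Foxe3 (−0.14) were lower (18.2%, against 7.71% of all probe sets). At that p 0 lens markers were higher, against 5.69% of all probe sets. Cryaa encodes a crystallin, and Foxe3 and Pax6 are transcription factors of the lens. In bulk tissue, more cells of a type and more RNA per cell cannot be told apart.

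The promoters of members of the gene cluster that holds Ccl2 and Ccl7, and of ligands with high and low differences, are shown first. RefSeq windows of 300 bases, 250 before and 50 after the gene's start on GRCm38.p6, were matched by symbol for 33 of the 47 members, in 35 windows. The nearest neighbours of Ccl2 and Ccl7 with a window were Ccl12 and Ccl8. Their 250 bases before the start follow 5′ to 3′, with the TATA box (TATAAA) in capitals.

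Ccl12, chr11:82101595-82101844, plus strand: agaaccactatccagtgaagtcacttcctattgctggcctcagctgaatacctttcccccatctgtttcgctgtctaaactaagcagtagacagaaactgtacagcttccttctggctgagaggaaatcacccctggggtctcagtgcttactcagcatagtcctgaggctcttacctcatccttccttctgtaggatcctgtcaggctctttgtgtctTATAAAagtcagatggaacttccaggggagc
Ccl8, chr11:82114935-82115184, plus strand: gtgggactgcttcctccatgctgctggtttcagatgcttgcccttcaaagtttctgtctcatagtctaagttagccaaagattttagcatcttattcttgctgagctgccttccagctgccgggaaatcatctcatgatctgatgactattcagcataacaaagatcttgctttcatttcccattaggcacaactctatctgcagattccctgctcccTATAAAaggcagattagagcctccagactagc

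The TATA box began 31 bases before the start of Ccl12 and 32 bases before that of Ccl8. This form stood, on either strand, in 9 of the 35 members' windows and in 13.6% of all 32851 windows. The next 4 promoters were chosen after the values were seen. Cxcl10 was the ligand next to Ccl2 in size of difference and Cxcl9 is its neighbour on chromosome 5, whereas Ccl20 and Cxcl2 were the ligands with the lowest differences. Capitals mark letters of the forms searched for NF-kB, a factor that drives chemokine genes. These were GGG, any pair of letters and TTCC, or GGG, any pair of letters and TTTCC, on either strand. Other forms of its site were not searched.

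Cxcl10, chr5:92348890-92349139, minus strand: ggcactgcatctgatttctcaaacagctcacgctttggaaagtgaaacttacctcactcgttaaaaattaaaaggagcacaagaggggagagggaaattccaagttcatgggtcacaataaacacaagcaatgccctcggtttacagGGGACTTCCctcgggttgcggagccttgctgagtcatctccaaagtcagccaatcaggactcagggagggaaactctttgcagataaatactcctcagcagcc
Cxcl9, chr5:92328080-92328329, minus strand: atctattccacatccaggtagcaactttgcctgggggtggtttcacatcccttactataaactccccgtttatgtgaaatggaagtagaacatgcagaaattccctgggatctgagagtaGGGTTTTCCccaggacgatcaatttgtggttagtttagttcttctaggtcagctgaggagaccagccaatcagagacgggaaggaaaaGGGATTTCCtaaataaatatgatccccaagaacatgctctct
Ccl20, chr1:83116516-83116765, plus strand: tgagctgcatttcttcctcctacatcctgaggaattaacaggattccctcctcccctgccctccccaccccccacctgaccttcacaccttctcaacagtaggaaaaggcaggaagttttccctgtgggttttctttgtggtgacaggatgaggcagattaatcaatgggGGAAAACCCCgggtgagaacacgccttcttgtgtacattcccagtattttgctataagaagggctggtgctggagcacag
Cxcl2, chr5:90903649-90903898, plus strand: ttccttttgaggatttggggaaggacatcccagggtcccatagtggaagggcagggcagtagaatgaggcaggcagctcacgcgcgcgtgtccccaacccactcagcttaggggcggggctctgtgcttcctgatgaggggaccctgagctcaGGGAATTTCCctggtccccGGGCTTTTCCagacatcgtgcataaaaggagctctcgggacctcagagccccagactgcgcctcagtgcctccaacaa

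Cxcl10 held the shorter NF-kB form 103 bases before its start, and Cxcl9 held it 130 and 42 bases before its start. Ccl20 held both forms at 80 bases, where they overlap on the minus strand, and Cxcl2 held the longer form at 97 and 78 bases. The shorter form stood in 7 of the 35 windows (20.0%), against 5.82% of all windows, and the longer one in 6 (17.1%), against 1.63%. The 4 promoters with matches shown here were chosen after the values were seen, from ligands with a higher, a near-equal and a lower signal after UVB. Whether these forms go with the UVB difference was not tested. The 14 members without a window, among them Ccl2 and Ccl7, were not searched. Of the other forms searched on both strands, AP-1 (TGANTCA) stood in 6 windows against 7.81% of all, the GC box (GGGCGG) in 6 against 35.7%, the bicoid form TAATCC in 4 against 7.06%, and ISRE (GAAA, any pair of letters and GAAA) in 3 against 3.44%. C/EBP (TTGCNNAAT) stood in 1 window against 2.4% of all, and CRE (TGACGTCA) and Egr (GCGTGGGCG) in 0 against 1.79% and 0.612%. These are letters in a window, not measured sites.

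Ccl2 had the largest difference of the 47 members in both experiments. Its log2 signal was 8.28 in control and 8.99 in UVB-irradiated epithelium in experiment 1, and 8.01 in control and 9.27 in UVB in experiment 2. Both UVB arrays lay above both control arrays, and the control arrays differed from each other by 0.27. The difference was 0.71 in experiment 1 (1.64-fold) and 1.26 in experiment 2 (2.39-fold), with a mean of 0.985 (1.98-fold, SE 0.19, 95% interval 0.24 to 1.73). Of the 19938 genes, 18 had a larger difference (0.0903%). It passed the fold threshold of the methods, 1.8-fold, but not an unadjusted p of 0.01 in limma with the block. The limma p was 0.0288, and the adjusted p 0.357 over all probe sets. The methods took their p from other software. The authors name Ccl2 among genes raised in UV-treated and in Otx2-overexpressing cells, from data they do not show. Photoreceptor markers had median differences of 0.62 and 1.08 in experiments 1 and 2, pigment epithelium markers of 0.77 and 0.98, and monocyte and macrophage markers of 0.15 and 0.19, and their part in the value of Ccl2 was not tested.

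Ccl7, the next member on chromosome 11, had a smaller difference of the same sign. Its log2 signal was 7.51 in control and 7.79 in UVB in experiment 1, and 7.44 in control and 7.85 in UVB in experiment 2. The groups did not overlap, and its differences in the 2 experiments lay closer together than those of Ccl2. The difference was 0.28 and 0.41, with a mean of 0.345 (1.27-fold, SE 0.05, 95% interval 0.14 to 0.55, limma's adjusted p = 0.357). Its rank among the 47 members was 5 by the mean, 8 in experiment 1 and 3 in experiment 2. Besides Ccl2, the members with a larger mean were Cxcl10 (0.385), Cxcl16 (0.375) and Cxcr2 (0.35). Of all genes, 355 (1.78%) had a larger mean difference. The difference of Ccl2 exceeded that of Ccl7 by 0.43 in experiment 1 and by 0.85 in experiment 2. The other 45 members had a median of 0.00, with a range from −0.40 to 0.385 that includes the value of Ccl7 but not that of Ccl2.

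**Figure D1:**
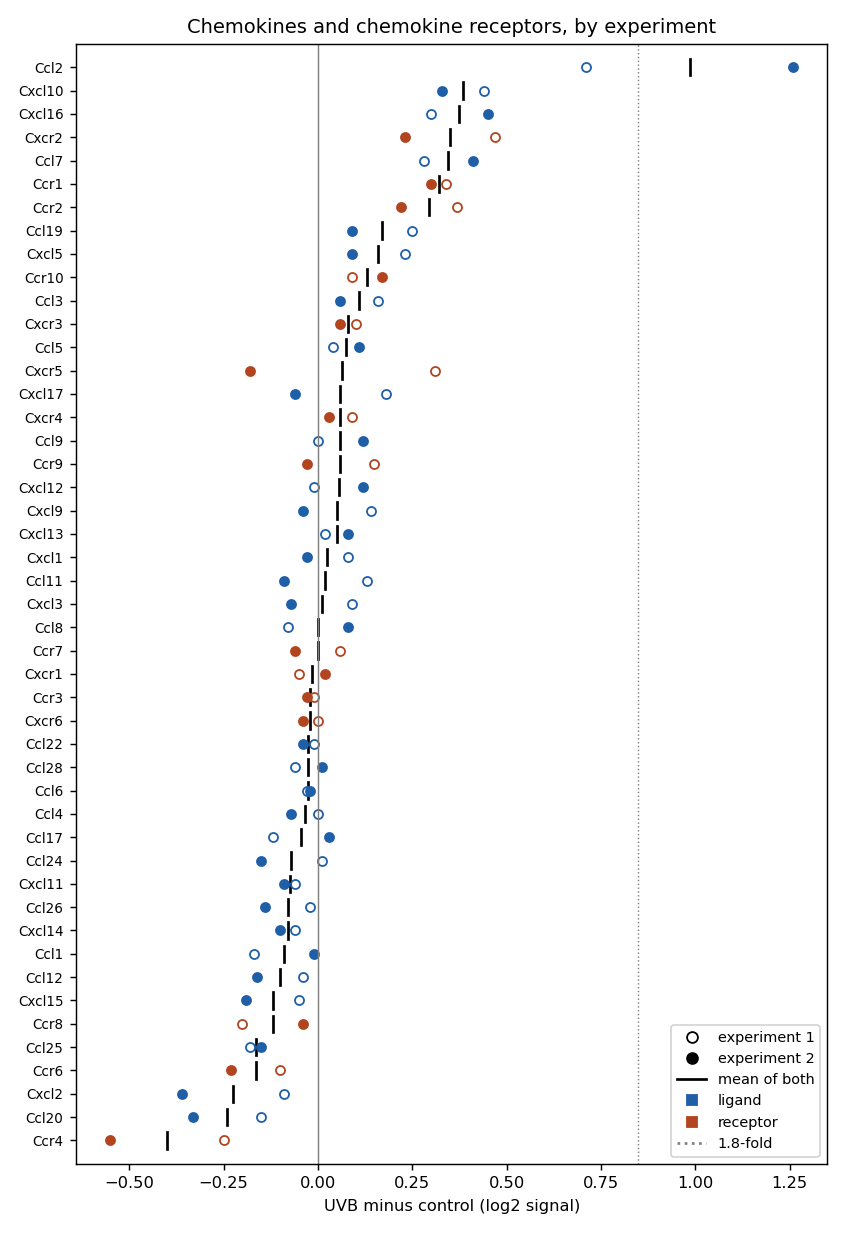
UVB minus control in log2 signal (x axis) of the 47 chemokines and receptors (y axis), with open circles for experiment 1, filled circles for experiment 2 and bars for the mean of both. Ccl2 stands apart at 0.71 and 1.26, whereas 29 of the 47 means lie within 0.1 of 0 (61.7%, against 66.2% of all probe sets), and the dotted line marks 1.8-fold.

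Counted over the members, 0 of 47 passed 1.8-fold and an unadjusted p of 0.01, where 18 of all 28944 probe sets passed as higher (0.0622%). At 1.5-fold and an unadjusted p of 0.05, Ccl2 alone passed, against 0.446% of all probe sets. At an unadjusted p of 0.05 without a fold, 7 members (14.9%) were higher, against 5.69% of all probe sets. These were Ccl2, Cxcl10, Cxcl16, Cxcr2, Ccl7, Ccr1 and Ccr2. In the lower direction 1 member, Ccl25, passed (2.13%), against 7.71% of all probe sets. At an adjusted p of 0.05 in limma with the block, 0 members passed, and the lowest adjusted p of a member was 0.357, which was also the lowest of all probe sets. For a single gene, 2 arrays against 2, taken as unpaired, allow no exact two-sided permutation p below 0.333. Exchanging arrays only within an experiment leaves a higher floor. The fit has 1 residual degree of freedom, and the p-values measure the spread between these arrays.

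Without the block, limma called 5 members higher at an adjusted p of 0.05, namely Ccr1 (0.0210), Cxcl10 (0.0263), Ccl7 (0.0343), Cxcl16 (0.0364) and Ccr2 (0.0499), against 6.62% of all probe sets. It called 1 lower, Ccl25 (0.0238), against 11.0% of all probe sets, and Ccl2 had an adjusted p of 0.0529. That fit counts the equal experiment means as a further degree of freedom, so its p-values are too small.

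There were 15 members higher in both experiments (31.9%), against 24% of all probe sets (6943 of 28944), and 15 lower in both (31.9%), against 37.4% of all probe sets. In these members the groups did not overlap. The even split depended on the scaling. There were 17 higher and 10 lower when the 75th percentiles of the arrays were set equal. Centring each array on its median gave 14 and 18, and quantile normalization 16 and 13. These scalings also moved the median of all probe sets. The shares of all probe sets under them were not computed, so these counts cannot be read as a result about the members. The median difference was 0.01 over the members, 0.005 over the 32 ligands and 0.06 over the 15 receptors, against −0.02 over all probe sets. By experiment the members' median was 0.01 and −0.03.

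Among the CC ligands, 5 of 19 were higher in both experiments (26.3%) and 7 were lower in both (36.8%), near the 24% and 37.4% of all probe sets. Ccl19, which guides dendritic cells and lymphocytes to lymph nodes, had log2 signals of 6.95 and 7.03 in control and 7.20 and 7.12 in UVB, a mean difference of 0.17. Its 5 probe sets, which cover near-identical gene copies and whose signal cannot be assigned to 1 copy, gave differences between 0.12 and 0.175. Ccl3, a macrophage product that acts on Ccr1, had a difference of 0.11, and Ccl5, a T cell attractant, one of 0.075. Both were higher in each experiment and neither passed an unadjusted p of 0.05.

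Ccl25, which draws thymocytes and gut lymphocytes through Ccr9, was the ligand with a lower signal at an unadjusted p of 0.05 in limma. Its log2 signal was 7.71 and 7.69 in control against 7.53 and 7.54 in UVB, and a second probe set had a mean difference of −0.15 beside −0.165. The groups were apart, with a difference of −0.18 in experiment 1 and −0.15 in experiment 2 for the brighter probe set. Ccl20, the ligand of Ccr6 made by many epithelia, had log2 signals of 6.47 and 6.56 in control and 6.32 and 6.23 in UVB. Its mean difference was −0.24, the lowest of the ligands, and it did not pass that p. Ccl12, another ligand of Ccr2, had a difference of −0.10 and Ccl1, the ligand of Ccr8, one of −0.09. Ccl6 (−0.025) and Ccl11 (0.02) lay near 0. Ccl11, an eosinophil attractant, went opposite ways, by 0.13 in experiment 1 and −0.09 in experiment 2.

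Of the 13 CXC ligands, 4 were higher in both experiments and 4 were lower in both (30.8% each, against 24% and 37.4% of all probe sets). Cxcl10, an interferon-inducible attractant of T cells, had log2 signals of 5.79 and 5.85 in control against 6.23 and 6.18 in UVB. The difference was 0.44 in experiment 1 and 0.33 in experiment 2, with a mean of 0.385 (1.31-fold, SE 0.05, 95% interval 0.20 to 0.57, limma's adjusted p = 0.357). Cxcl9 and Cxcl11, the other interferon-inducible ligands of Cxcr3 and neighbours of Cxcl10 on chromosome 5, had mean differences of 0.05 and −0.075. Cxcl9 went from 6.03 to 6.17 in experiment 1 and from 6.12 to 6.08 in experiment 2. RefSeq lists mouse Cxcl11 as a transcribed pseudogene in this assembly.

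Cxcl16 is a transmembrane chemokine and scavenger receptor of macrophages, endothelium and epithelia. Its log2 signal was 5.82 and 5.75 in control against 6.12 and 6.20 in UVB, with a mean difference of 0.375 (1.30-fold, SE 0.06, 95% interval 0.15 to 0.60, limma's adjusted p = 0.357). As with Ccl7, the difference was larger in experiment 2 (0.45) than in experiment 1 (0.30).

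The neutrophil attractants that act on Cxcr2 had differences of both signs. Cxcl2 had log2 signals of 5.13 and 5.27 in control and 5.04 and 4.91 in UVB, a mean difference of −0.225. Cxcl1 had a mean difference of 0.025 with opposite signs in the experiments, Cxcl3 one of 0.01 and Cxcl5 one of 0.16. Cxcl15, a lung chemokine of the same group, had a difference of −0.12 at a log2 signal between 4.43 and 4.62. None of these passed an unadjusted p of 0.05 in limma.

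Cxcl14, a homeostatic chemokine of epithelia, was the 1 member above the 75th percentile on every array. Its log2 signal was 9.46 and 9.48 in control and 9.40 and 9.38 in UVB, a mean difference of −0.08 that did not pass an unadjusted p of 0.05. Cxcl12, which retains leukocytes and stem cells through Cxcr4, had a mean difference of 0.055. Cxcl17, a chemokine of mucosal epithelia, had one of 0.06 with opposite signs (0.18 and −0.06).

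**Figure D2:**
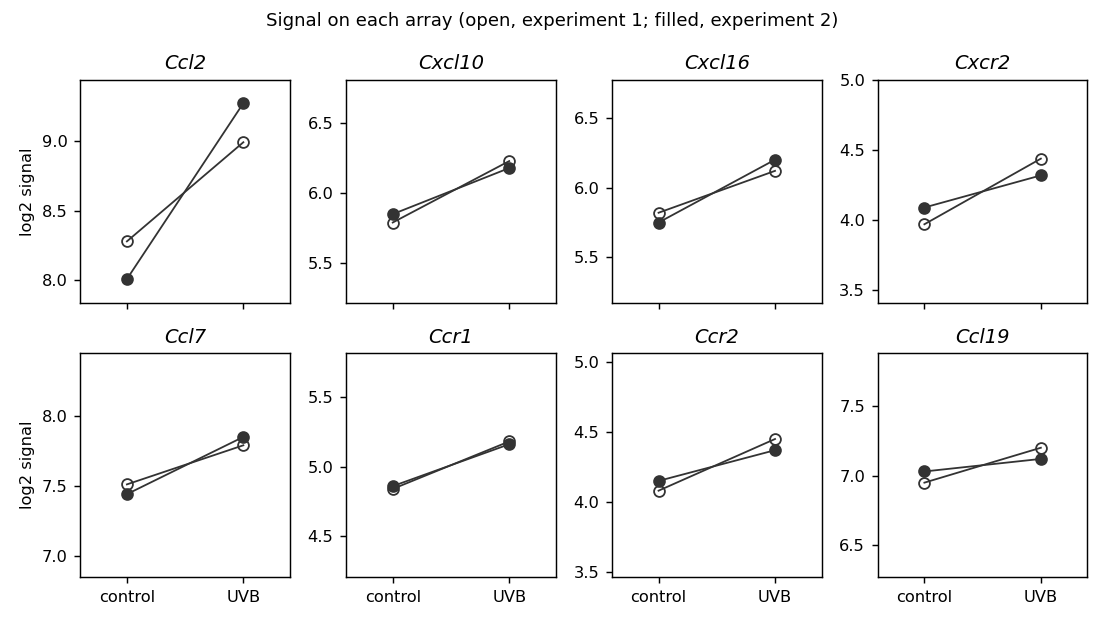
Log2 signal on each array (y axis, the same span in each panel) in control and UVB-irradiated epithelium of the 8 members with the largest mean difference among those higher in both experiments; lines join the arrays of an experiment. Every line rises, from 8.28 to 8.99 and from 8.01 to 9.27 for Ccl2, and the lines cross because the experiment means are equal.

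Of the 15 receptors, 6 were higher in both experiments (40.0%) and 4 were lower in both (26.7%), against 24% and 37.4% of all probe sets. Ccr2, the receptor of Ccl2 and Ccl7 that marks inflammatory monocytes, had log2 signals of 4.08 and 4.15 in control against 4.45 and 4.37 in UVB. The groups were apart, with a mean difference of 0.295 (1.23-fold, SE 0.06, limma's adjusted p = 0.357). Ccr1, which binds Ccl3 and Ccl7 on monocytes and neutrophils, had log2 signals of 4.84 and 4.86 in control against 5.18 and 5.16 in UVB. Its difference of 0.32 (1.25-fold, SE 0.03, 95% interval 0.20 to 0.44) had the lowest unadjusted p of all members, and the experiments gave 0.34 and 0.30. Ccr3, the eosinophil receptor that also binds Ccl7, had a difference of −0.02.

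Cxcr2, the neutrophil receptor of Cxcl1, Cxcl2 and Cxcl5, had log2 signals of 3.97 and 4.09 in control against 4.44 and 4.32 in UVB, with a mean difference of 0.35 (1.27-fold, SE 0.09, limma's adjusted p = 0.357). Cxcr1, its neighbour on chromosome 1, had one of −0.015. Ccr1, Ccr2 and Cxcr2 were among the 17 members below the 25th percentile on every array, so their differences rest on dim probe sets. Ccl2 and Ccl7, by contrast, were among the 5 members above the median of every array, with Ccl25, Cxcl14 and Ccr7.

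Ccr4, a receptor of regulatory and skin-homing T cells, had the lowest difference of all members. Its log2 signal was 5.86 and 6.01 in control against 5.61 and 5.46 in UVB. The groups were apart, with a difference of −0.25 in experiment 1 and −0.55 in experiment 2 (mean −0.40, SE 0.11, limma's adjusted p = 0.357). Ccr6, the receptor of Ccl20, had a mean difference of −0.165, and Ccr8 one of −0.12. Ccr7, the receptor of Ccl19, had one of 0.00, from 0.06 in experiment 1 and −0.06 in experiment 2. Ccr10 (0.13), Cxcr3 (0.08) and Cxcr4 (0.06) were higher in both experiments without passing an unadjusted p of 0.05. Cxcr5, a B cell receptor, went from 4.96 to 5.27 in experiment 1 and from 5.20 to 5.02 in experiment 2, the widest disagreement among members with opposite signs.

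**Figure D3:**
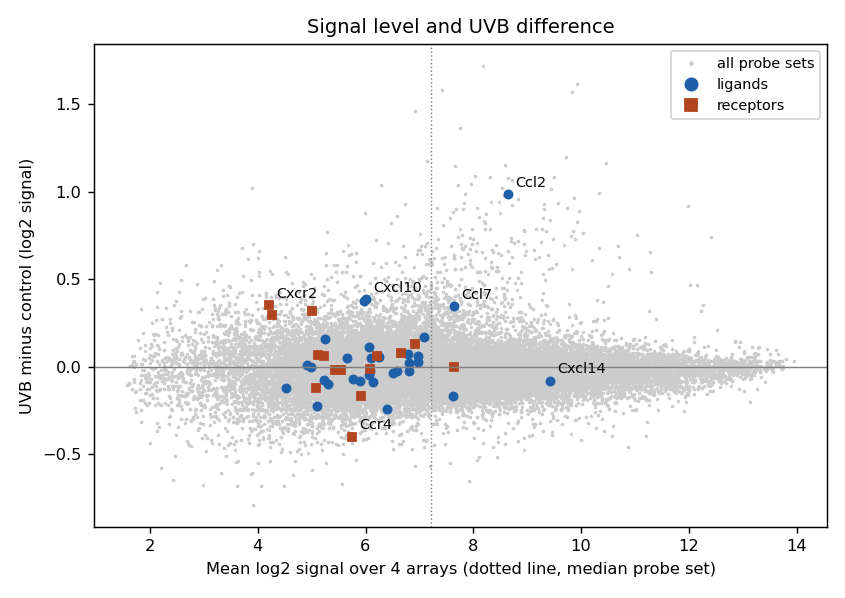
Mean log2 signal over the 4 arrays (x axis, dotted line at the median probe set) against UVB minus control (y axis) for all 28944 probe sets in grey, with the 32 ligands as circles and the 15 receptors as squares. Ccl2 and Ccl7 lie right of the median, whereas Cxcr2 at 0.35, with Ccr2 and Ccr1 near it, lies among the dim probe sets.

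Ligands and receptors were set side by side in 25 known pairs of 23 ligands and 14 receptors. In 6 pairs both partners were higher in both experiments. These were Ccl2 with Ccr2, Ccl7 with Ccr2, Ccl7 with Ccr1, Ccl3 with Ccr1, Cxcl5 with Cxcr2 and Cxcl10 with Cxcr3. In 3 pairs both were lower in both experiments, namely Ccl20 with Ccr6, Ccl22 with Ccr4 and Ccl1 with Ccr8. Cxcl16 (0.375) and its receptor Cxcr6 (−0.02) were not alike, nor were Ccl25 (−0.165) and Ccr9 (0.06). Pairs share members, so they are not separate observations. Single probe sets were higher in both experiments in 24% and lower in both in 37.4% of all cases. A share for both partners of a pair was not computed, so the pair counts cannot be read against these values.

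Gene order set Ccl2 and Ccl7 beside their neighbours. Ccl2, Ccl7, Ccl11, Ccl12, Ccl8 and Ccl1 follow one another among the members on chromosome 11 in the RefSeq annotation of GRCm38.p6. Their mean differences were 0.985, 0.345, 0.02, −0.10, 0.00 and −0.09 in that order. The values of Ccl2 and Ccl7 stood beside neighbours between −0.10 and 0.02. The members further along, Ccl5, Ccl9, Ccl6, Ccl3 and Ccl4, had differences between −0.035 and 0.11, and Ccl3 and Ccl4 overlap in the annotation. On chromosome 5, Cxcl10 at 0.385 stood between Cxcl9 and Cxcl11. On chromosome 9, Ccr1 (0.32), Ccr3 (−0.02) and Ccr2 (0.295) follow one another among the members, with the near-zero value between a pair of higher ones.

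**Figure D4:**
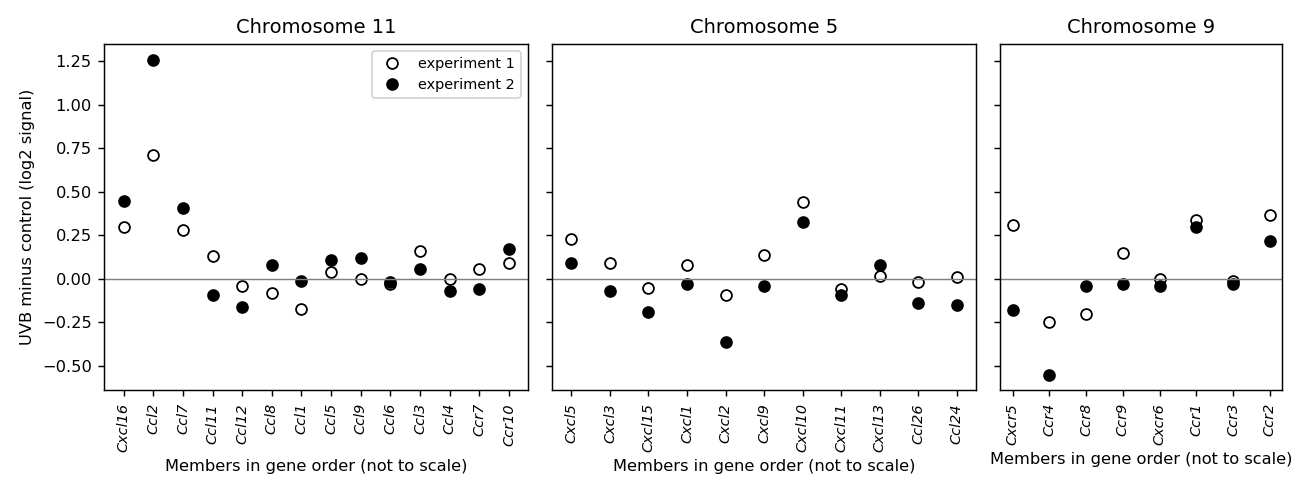
UVB minus control in log2 signal (y axis) of members on chromosomes 11, 5 and 9 in gene order, not to scale (x axis), with open circles for experiment 1 and filled circles for experiment 2. Ccl2 and Ccl7 are above 0 in both experiments, and the next members, Ccl11 to Ccl1, have means between −0.10 and 0.02.

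Other genes of the chemokine system were counted from lists chosen with earlier results of these data known, to be read against 5.69% of all probe sets higher and 7.71% lower at an unadjusted p of 0.05. Of 13 chemokines and receptors outside the naming rule, 1 passed that p as higher (7.69%, near the share of all probe sets) and 0 as lower, with a median of 0.05. Ackr1, a scavenging receptor of venules and red cells that binds Ccl2 and Ccl7, had log2 signals of 6.93 and 6.90 in control against 7.30 and 7.34 in UVB, a mean difference of 0.405. It was the gene that passed, with a difference of 0.37 in experiment 1 and 0.44 in experiment 2. Cx3cl1, a membrane-bound attractant of monocytes, had a difference of 0.135, Ackr3, a scavenger of Cxcl12, one of 0.16, and Ackr2 one of 0.10.

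Inducers of chemokine transcription, 26 measured of 29, had a median of 0.0075, with 5 higher (19.2%, against 5.69% of all probe sets) and 2 lower (7.69%, against 7.71%) at an unadjusted p of 0.05. Egr1, an immediate early zinc finger factor, had log2 signals of 7.58 and 7.30 in control against 8.34 and 8.63 in UVB, with a difference of 1.045. Il33, an epithelial alarmin, had a difference of 0.72 that was 0.26 in experiment 1 and 1.18 in experiment 2. Tnfaip3, an NF-kB target that restrains NF-kB, had one of 0.425, from 7.69 and 7.70 in control to 8.12 and 8.12 in UVB. Nfkbie, an inhibitor of NF-kB, had a difference of −0.24. The 5 that passed an unadjusted p of 0.05 in limma as higher were Egr1, Tnfaip3, Nfkbiz (0.215), Fos (0.205) and Nfkbia (0.155). The 2 lower ones were Nfkbie and Il1b, and Il33 did not pass. The list also holds genes that restrain NF-kB, such as Tnfaip3 and Nfkbie, so its shares are not those of inducers alone. Among cytokines known to raise Ccl2, Tnf had a difference of −0.105, Il1b one of −0.15 and Il6 one of 0.05 at log2 signals between 3.08 and 3.19. Rela, an NF-kB subunit and the brightest probe set of the list, had a difference of −0.045.

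Of 24 signalling genes downstream of the receptors, 1 was higher and 1 lower at an unadjusted p of 0.05 (4.17% each, below the 5.69% and 7.71% of all probe sets), with a median of −0.0225. Gnb1, a G protein beta subunit and the brightest probe set of them, had a difference of 0.145, Gng2, a gamma subunit, one of −0.14, and Pik3cg, the lipid kinase that beta and gamma subunits activate, one of −0.14. Of 14 genes that trim or present chemokines, 2 were higher (14.3%, against 5.69% of all probe sets) and 0 lower (against 7.71%), with a median of −0.025. These were Dpp4, a protease that clips chemokine ends (0.18), and Sdc3, a heparan sulfate carrier (0.135).

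Leukocyte markers were read beside the chemokine values. Of 13 monocyte and macrophage markers, 10 were higher in both experiments (76.9%, against 24% of all probe sets), and the median was 0.175. At an unadjusted p of 0.05, 4 were higher (30.8%, against 5.69%) and 1 lower (7.69%, against 7.71%). Their summed linear signal was 1360 and 1290 in control against 1600 and 1690 in UVB. Lyz2 (lysozyme) had log2 signals of 7.59 and 7.30 in control and 7.98 and 8.27 in UVB, and Cd68, a lysosomal protein, 7.23 and 7.09 against 7.68 and 7.82. The differences were 0.68, which did not pass an unadjusted p of 0.05, and 0.59, which did. Csf1r, the receptor of macrophage growth factor, had one of 0.35 and C1qb one of 0.405. Itgam, an integrin of myeloid cells, had a difference of −0.195, and the pan-leukocyte marker Ptprc had a difference of 0.10. The part of such cells in the values of Ccl2, Ccl7, Ccr1 and Ccr2 was not tested.

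Neutrophil markers had a summed signal of 360 and 376 in control and 372 and 357 in UVB, and 7 of 7 were measured with a median of −0.01. In both experiments 1 was higher (14.3%, against 24% of all probe sets) and 3 were lower (42.9%, against 37.4%). At an unadjusted p of 0.05 in limma, 0 were higher (against 5.69%) and 1, Mpo (−0.14), was lower (14.3%, against 7.71%). Of 8 lymphocyte markers measured, 1 was higher and 1 lower at an unadjusted p of 0.05 (12.5% each, against 5.69% and 7.71% of all probe sets), with a median of 0.0025. Of 8 endothelial markers, Kdr (0.385) was higher and Tek (−0.185) lower at that p, the same shares as for lymphocytes, with a median of −0.085. Fibroblast and pericyte markers (7 measured) had a median of 0.065, and cornea and conjunctiva markers (8) one of 0.0325, with Krt5 at 1.10 in experiment 1 and −0.23 in experiment 2. Ciliary body and iris markers (6) had a median of 0.25, with Zic2 at 0.48 and Aqp1 at −0.20. Aqp1 was the 1 of the 6 that passed an unadjusted p of 0.05 (16.7% lower, against 7.71% of all probe sets). It was also the brightest of the 6, and which cells gave its signal was not tested. Cells of these tissues and of the retina can make chemokines too, and their part in the values was not tested.

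**Figure D5:**
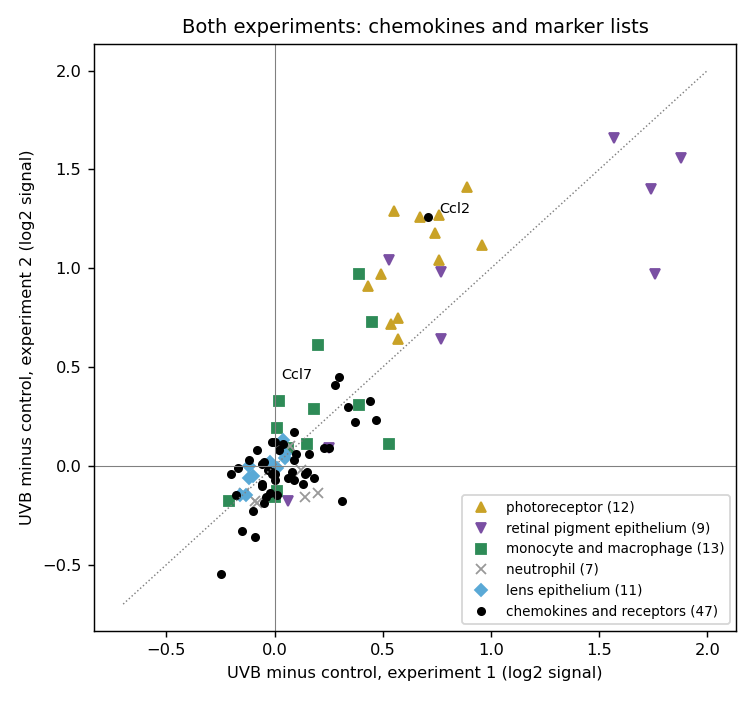
UVB minus control in log2 signal in experiment 1 (x axis) and in experiment 2 (y axis) of the 47 chemokines and receptors (black) and of 5 marker lists, with the dotted line at equal values. Ccl2 (0.71, 1.26) lies among the photoreceptor markers, whose medians were 0.62 and 1.08, whereas most chemokines lie around 0 with the lens epithelium markers.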

How the data were processed

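Gene expression was measured on 4 arrays of mouse lens epithelium. The authors normalized the signals with Affymetrix Expression Console, and the deposited values are log2 signals, 1 per probe set, rounded to 2 decimals. Version, summarization and the step that set the experiment means equal are not stated in the sources used here. Probe sets were named from the platform annotation, of which 21789 had 1 symbol, 1621 several and 5534 none.

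Differences between UVB and control were fitted in limma 3.58.1 (R 4.3.3) over all 28944 probe sets, two-sided, with Benjamini-Hochberg adjustment. The experiment was a block because both eyes came from the same mice, and its number was read from the sample titles, where experiment 1 carries none. The deviations of same-numbered arrays correlated at −0.998, which the equal experiment means produce (residual degrees of freedom 1 with the block and 2 without it). Arrays limit the precision by their number. The fit was tested on simulated data. Intervals are 95%.

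The thresholds were those of the methods (1.8-fold and p 0.01), with 1.5-fold and p 0.05 and an adjusted p of 0.05 beside them. The members, lists and tests were chosen with earlier results of these data known. Named members were Ccl2 and Ccl7, up to 8 per direction of the same sign in both experiments, the 10 ligands and 6 receptors of highest signal, 4 with opposite signs, receptors of named ligands, neighbours in gene order and up to 4 genes per list. Alternatives were other normalizations, spread estimates, probe sets and leaving out each array. Promoters came from RefSeq, GRCm38.p6. The human and cell line experiments were not analysed here.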

Additional observations from a re-analysis of the deposited data

How the results depend on the processing

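The difference of Ccl2 stayed 0.985 with a robust prior in limma (adjusted p = 0.0922) and was 0.992 with quantile normalization (adjusted p = 0.313), and 1 member, Ccl2, then passed 1.8-fold and p 0.01 where 0 had passed. It was also 1 at 1.5-fold and p 0.05. Without the replicate block, members at an adjusted p of 0.05 in limma were 6 of 47 and not 0, with 5 higher and 1 lower. Of all probe sets, 6.62% were then called higher and 11.0% lower. Genes of the pathway and marker lists were 43 and not 0. Their share was not computed, so that count cannot be read as a result about the lists. These counts rise because the fit then counts the equal experiment means as a degree of freedom. In that fit 0 members passed 1.8-fold and p 0.01. Leaving out each array in turn, which needs the fit without the block, gave 0.845 to 1.125 for Ccl2, 0.31 to 0.38 for Ccl7, −0.01 to 0.03 for the members' median, and 0 to 0 members past either threshold. Ccl2 and Ccl7 were higher in each of those fits, as they must be when the groups do not overlap. In those fits the lone array of a group is assumed to vary like the other group. Members with small values turned their sign. Ccl11 was −0.035 without control or UVB replicate 1, Cxcl1 −0.005 without control replicate 1, Cxcr5 −0.055 and −0.06 without control and UVB replicate 1, and Cxcr1 0.005 without UVB replicate 1 and with equal 75th percentiles. Applying these alternatives to members other than Ccl2 and Ccl7 was chosen after seeing the data. The other scalings moved the median of all probe sets by −0.02 (centring), 0.011 (quantile) and 0.02 (75th percentile), and the members' median to −0.01, 0.016 and 0.03. Dim probe sets, among them those of Ccr1, Ccr2 and Cxcr2, limit what can be read from the receptors.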

Other observations

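Chemokine genes of the naming rule without a probe set of their own are Ccl21a to Ccl21d and Ccl27a and Ccl27b, 6 genes in all, whose near-identical copies share probe sets with several symbols. The 4 probe sets of the Ccl21 family, which bears ligands of Ccr7, held the same values, with log2 signals of 7.92 and 7.91 in control and 7.89 and 7.91 in UVB and a mean difference of −0.015. The 3 probe sets of the Ccl27 family, skin chemokines that act on Ccr10, had mean differences between 0.035 and 0.06. The brighter of them had log2 signals of 11.00 and 10.98 in control and 11.01 and 11.04 in UVB. The probe sets carry 7 symbols in the Ccl21 family and 5 in the Ccl27 family, more than the chemokine genes named here. In either family the signal cannot be assigned to 1 copy, or to a chemokine and not another of these symbols.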
